A study of Mus musculus with 19 samples.

Results

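Scx+ mouse plantaris tendon after 7 days of a growth stimulus (4 libraries) was compared with Scx+ tendon that had no stimulus (3 libraries), gene by gene over all 16625 genes with enough signal to test. These 7 libraries are part of 19 in a study of mice with a targeted deletion of scleraxis, a tendon transcription factor, and they are all the libraries labelled as one or the other of these groups. Per the labels, the day 7 mice were Scx+ and had received tamoxifen, and the control mice were Scx+ and had not. Tamoxifen and the stimulus therefore cannot be told apart in this comparison. The 4 Scx+ libraries of day 14, also with tamoxifen, are used for 1 further comparison, day 14 against day 7. The alleles, the promoter of any Cre, the strain, sex and age of the mice and the nature of the stimulus are not given in the labels, and no library is stated to be a separate animal, so the p-values measure the spread between libraries.

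The plantaris tendon runs along the hindlimb to the foot. Tendon is built mostly of type I collagen fibrils, laid down by fibroblasts (tenocytes) whose lineage is marked by the transcription factors Scx and Mkx and the membrane protein tenomodulin (Tnmd). New fibrils need several steps: collagen chains are hydroxylated and folded in the endoplasmic reticulum, secreted and trimmed, and then crosslinked outside the cell by lysyl oxidases. A growing or remodelling tendon also makes matricellular proteins such as tenascin C and periostin, which bind the matrix and cell receptors, and metalloproteinases, which cut the matrix.

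The values are the authors' scaled signal per gene, rescaled here by medians of ratios and called units. They are not divided by gene length, so genes are compared between libraries and not with each other. Total deposited signal was 67.8 to 79.8 M (mega) units in the controls and 45 to 48.5 M at day 7, and the number of reads behind it is unknown. Across genes, the correlation of log2 values between libraries was 0.926 to 0.945 within the controls, 0.947 to 0.986 within day 7 and 0.762 to 0.850 between the groups, a description only, since genes are not independent. The libraries differed in the share of signal held by marker genes of muscle and fat. Skeletal muscle genes took up 26.7%, 31.9% and 27.5% of the signal in the controls, but 0.260%, 0.0378%, 2.32% and 2.42% in day 7 replicates 1 to 4. Adipocyte markers held 0.355% to 0.462% in the controls and 0.0245% to 0.0409% at day 7, with all 12 adipocyte markers tested lower. Day 7 replicates 3 and 4 thus stood apart from replicates 1 and 2 in muscle signal, and list counts that change by over 1.5 times without this pair are also given without it. Fewer cells of a type and less RNA per cell cannot be told apart in bulk tissue, and whether the loss of muscle and fat signal has a part in any other difference was not tested.

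**Figure D1:**
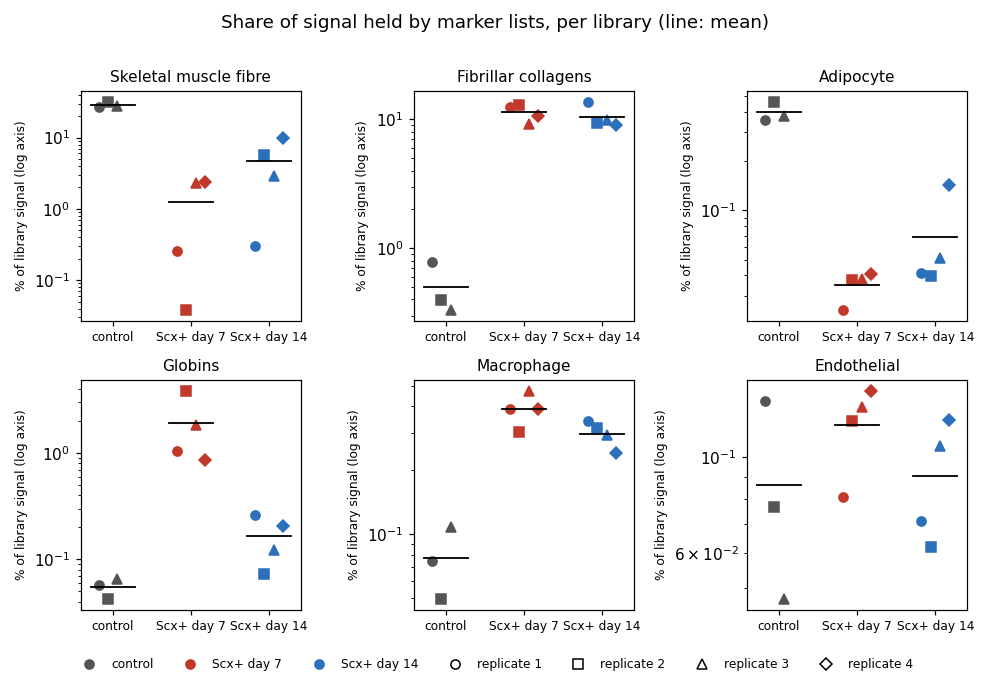
Share of each library's signal (%, log axis) held by 6 marker lists in control (grey), Scx+ day 7 (red) and Scx+ day 14 (blue) libraries, with the replicate number as the shape and the group mean as a line. Muscle signal lay at 26.7% to 31.9% in the controls and at 2.42% or below at day 7, while fibrillar collagens went from 0.780% or less to 9.24% or more.

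Most genes differed. With limma and Benjamini-Hochberg adjustment, 10192 of 16625 genes (61.3%) passed a threshold of 0.05, 5617 of them higher at day 7 (33.8% of genes tested) and 4575 lower (27.5%). Differences are log2 of day 7 over control, on the value plus 2 units, each with its fitted standard error (SE). They exceeded 2-fold for 4112 of the higher and 3024 of the lower genes. The groups did not overlap for 5121 higher and 4384 lower genes. The median over all genes tested was 0.18. The balance of directions depended on the scaling: 55.1% of the genes called were higher with medians of ratios, against 78.6% when the values were divided by library totals, which moved the median by 0.65. Small differences are therefore given as relative to the median gene. In the authors' deposited table, 5185 genes were higher and 4635 lower at their adjusted 0.05, and of the 15906 genes in both analyses 9224 passed both with the same sign and 0 with opposite signs. Another 671 passed only here and 592 only in the authors' analysis. Both used the same libraries, so this is not an independent check. Counts of gene lists below are to be read beside the 33.8% higher and 27.5% lower among all genes, and they describe a list without testing it. Genes near 0 in the controls could be tested only through libraries with a stimulus, so counts of lists that hold such genes lean towards rises.

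**Figure D2:**
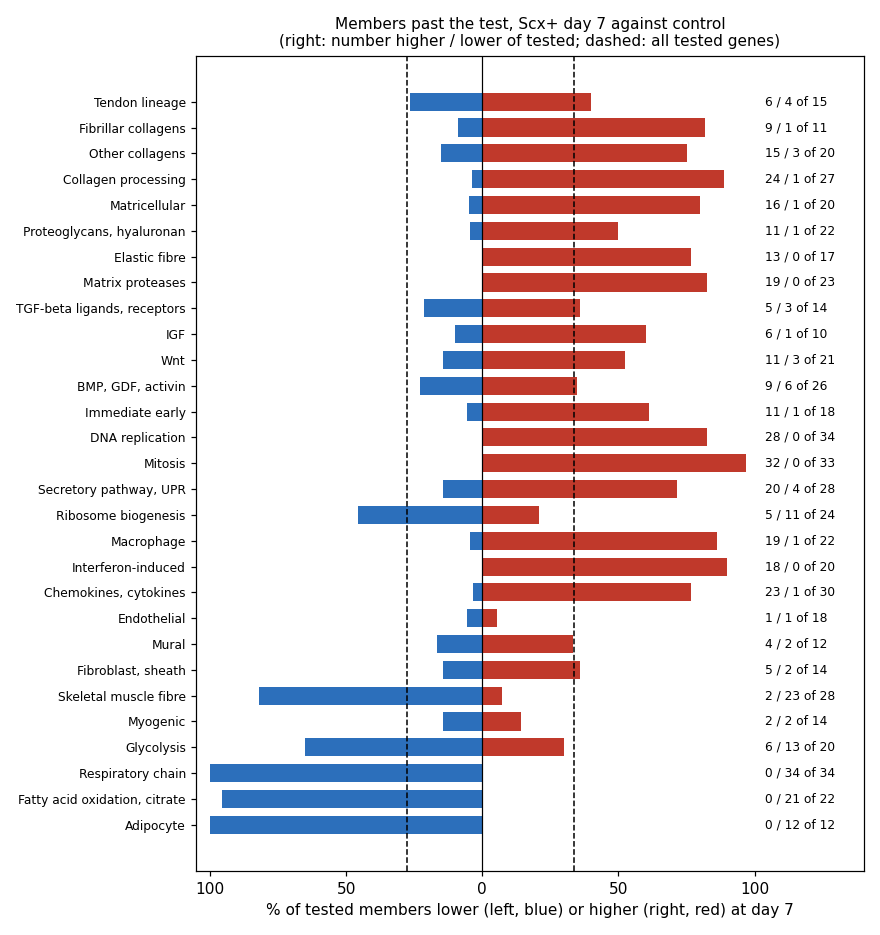
Percentage of the tested members of 29 gene lists that were lower (blue, left) or higher (red, right) in Scx+ day 7 than in control libraries, with the counts at the right and the share over all tested genes as dashed lines. Mitosis genes (32 of 33 higher) and respiratory chain genes (34 of 34 lower) lie at the ends.

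The tendon transcription factor genes Scx and Mkx rose. Scx (chromosome 15, 76457452 to 76459458, plus strand, GRCm38) was at 593, 442 and 319 units in the controls and 8044, 5609, 3293 and 2772 units at day 7. Every day 7 library lay above every control, with the highest values in replicates 1 and 2, and the difference was 3.36 ± 0.42 (adjusted p = 4.67e-06), a 10.3-fold rise. Mkx, which supports collagen fibril growth, went from 309.6, 210 and 139 to 1404, 1667, 723 and 805 units (2.36 ± 0.45, adjusted p = 0.000221). Tnmd, on chromosome X (133850980 to 133865577, plus strand), was at 3052, 1274 and 886 units in the controls and 27749, 19029.9, 10065 and 10202 units at day 7 (3.33 ± 0.67, adjusted p = 0.000448). Replicates 1 and 2 again held the highest levels of Tnmd, and the groups did not overlap.

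The tendon lineage list as a whole was mixed. Of its 15 tested members, 6 rose and 4 fell (median 1.08), or 10 and 3 by library totals. Egr2, a zinc finger factor of tendon and of the early response to stimuli, was at 0, 56.3 and 59.4 units in the controls and 332, 503, 456 and 1512 at day 7 (4.92 ± 0.90, adjusted p = 0.000182), with replicate 4 far above the others. The falls included Chad, Eya1 and Six2. Chad encodes chondroadherin, a leucine-rich matrix protein, and went from 53199.5, 26675 and 14206 to 3492, 6858, 2535 and 1565 units (-3.12 ± 0.93, adjusted p = 0.0087). This call did not pass without day 7 replicates 3 and 4 (-2.47). The transcriptional regulators Eya1 and Six2 are also expressed in skeletal muscle, whose genes fell with them. Eya1 went from 702, 1159 and 1567 to 15.8, 18.5, 121 and 147 units (-4.42 ± 0.81, adjusted p = 0.000179), with day 7 replicates 3 and 4, which held more muscle signal, above replicates 1 and 2. Several abundant products of mature tendon did not pass with medians of ratios. The 10 list members higher by library totals include some of the 5 not called here, so these calls depended on the scaling. Fibromodulin (Fmod), which binds collagen fibrils, was at 99449, 33362 and 22236 units in the controls and 86796, 108653, 55264 and 51470 at day 7, and Comp and decorin (Dcn) also overlapped between groups, with differences of 1.08 ± 0.67 and 0.71 ± 0.48.

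Fibrillar collagen genes rose nearly together: 9 of 11 tested were higher, with a median of 3.70. Col1a1, the main chain of tendon collagen (chromosome 11, 94936224 to 94953042, plus strand), was at 132385, 78027 and 56310.5 units in the controls and 1869200, 2050380, 1239630 and 1548510 units at day 7. The lowest day 7 library was above the highest control, and the difference was 4.30 ± 0.45 (adjusted p = 7.26e-07). Col3a1, the chain of the thin fibrils of young and healing tissue, rose by 3.90 ± 0.45 (adjusted p = 1.92e-06), from 133783, 78312 and 70344 to 1637010, 1429720, 1119530 and 1246720 units. The minor chains that help start and limit fibrils moved alike, Col5a1 by 4.11 ± 0.41 and Col11a1 by 4.31 ± 0.59 (adjusted p = 5.26e-07 and 1.36e-05). Fibrillar collagens together held 0.330% to 0.780% of the control signal and 9.24% to 13.0% at day 7. Outside the muscle genes the shares were 0.454% to 1.06% and 9.46% to 13.0%. Col24a1 was the 1 fibrillar gene that fell, and no member was lower by library totals.

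Col2a1, the collagen of cartilage, stood out for its spread. Its values were 35.2, 13.6 and 3.83 units in the controls and 293, 19452, 1184 and 269 at day 7 (6.28 ± 1.87, adjusted p = 0.00859), and replicate 2 carried most of the signal. Among the other collagens, 15 of 20 tested were higher and 3 lower (median 3.02). Col12a1, which sits on the surface of fibrils, went from 3983, 2286 and 1518 to 76427, 77235, 70274 and 66131 units (4.91 ± 0.41, adjusted p = 8.44e-08), a narrow day 7 range. Col8a1, a network collagen, rose by 4.59 ± 0.53 (adjusted p = 2.35e-06), and Col6a2, of the beaded filaments around cells, by 3.55 ± 0.46 (adjusted p = 6.4e-06). Col22a1 encodes a collagen of the muscle-tendon junction and fell. It was at 14552, 12346 and 14329 units in the controls and 354, 81.6, 692 and 855 at day 7 (-5.23 ± 1.0, adjusted p = 0.000339), beside the loss of muscle signal.

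The machinery that makes and crosslinks collagen was higher in 24 of 27 tested genes, with 1 lower (median 2.20). P4ha3, a subunit of collagen prolyl hydroxylase, was at 578, 402 and 378 units in the controls and 6928, 6597, 5207 and 4864 at day 7 (3.71 ± 0.26, adjusted p = 1.19e-08). Serpinh1, the collagen chaperone HSP47, went from 8467, 6525 and 7593 to 81581, 84132, 51913 and 58644 units (3.17 ± 0.32, adjusted p = 5.52e-07). No day 7 library came near the control range in either gene. The lysyl hydroxylase Plod2 and the collagen-folding isomerase Fkbp10 rose by 3.47 ± 0.47 and 3.20 ± 0.28 (adjusted p = 1.05e-05 and 1.57e-07). Lox, the enzyme that crosslinks collagen and elastin, was at 8649, 2971 and 2539 units in the controls and 94745, 120703, 75557 and 66735 at day 7 (4.44 ± 0.41, adjusted p = 2.25e-07). Pcolce2, an enhancer of procollagen trimming, was the member that fell (-2.14 ± 0.47, adjusted p = 0.000892), and P3h2 and Loxl4 did not pass.

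Matricellular genes showed some of the largest rises, with 16 of 20 higher and 1 lower (median 1.90), or 14 and 2 without day 7 replicates 3 and 4. Periostin (Postn, chromosome 3, 54361109 to 54391037, plus strand), a protein of growing and healing connective tissue, was at 3532, 2035 and 2938 units in the controls and 624500, 409597, 402842 and 479291 units at day 7. That was a difference of 7.41 ± 0.35 (adjusted p = 2.47e-10), or 170.4-fold, against a spread of less than 2-fold within each group. Cthrc1, a secreted protein of collagen-making fibroblasts, went from 107, 72.8 and 161 to 51034, 36429, 23120.3 and 27353 units (8.23 ± 0.43, adjusted p = 6.65e-10). Tenascin N (Tnn) and tenascin C (Tnc), large proteins that loosen cell contacts with the matrix, were also far above control. Tnn was at 152, 44.3 and 30.1 units in the controls and 14336, 25130.5, 10584 and 11921 at day 7 (7.90 ± 0.52, adjusted p = 9.73e-09). Tnc was at 2437, 1139 and 624 and 44223, 61012, 47797 and 44979.9 units (5.35 ± 0.52, adjusted p = 4.55e-07). Tenascin X (Tnxb), the tenascin of resting connective tissue, fell from 24862, 16434 and 15779.9 to 4053, 3029.5, 2749.6 and 2017 units (-2.69 ± 0.50, adjusted p = 0.000196). The growth factor-binding matricellular genes Ctgf and Nov did not pass, at 0.53 ± 0.41 and 0.73 ± 0.56.

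Elastic fibre genes rose in 13 of 17 cases and fell in 0 (median 2.23). Fbn2, the fibrillin of developing tissue, had the largest rise of a matrix gene under the naming rule, from 15.3, 20 and 10.6 to 6059.6, 7825, 5020.1 and 6453 units (8.54 ± 0.48, adjusted p = 3.13e-09). The microfibril genes Mfap4 and Mfap2 rose by 5.44 ± 0.30 and 3.91 ± 0.37, and Emilin1, which joins elastin to microfibrils, by 4.25 ± 0.30 (adjusted p = 1.09e-09, 3.45e-07 and 1.61e-08). Proteoglycan and hyaluronan genes were more divided, with 11 of 22 tested higher and 1 lower, or 9 and 3 without control replicate 3 and 17 and 1 by library totals. Acan, the large proteoglycan of cartilage and compressed tendon, was at 735, 213 and 93.5 units in the controls and 15781, 29759, 11404 and 10007 at day 7 (5.94 ± 0.82, adjusted p = 1.91e-05). Has2, which makes hyaluronan, rose from 88.3, 157 and 308 to 1590.3, 1609.9, 1579.5 and 1435 units (3.24 ± 0.49, adjusted p = 2.98e-05). Lumican (Lum) and osteoglycin (Ogn), small leucine-rich proteoglycans like Fmod, rose by 3.45 ± 0.65 and 3.81 ± 0.43 (adjusted p = 0.000236 and 1.72e-06). Prg4, the lubricant of gliding surfaces, overlapped between groups (0.88 ± 0.57, adjusted p = 0.19). Hapln1, which links hyaluronan to proteoglycans, passed at 3.43 ± 1.15 (adjusted p = 0.0166) but not without control replicate 3.

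**Figure D3:**
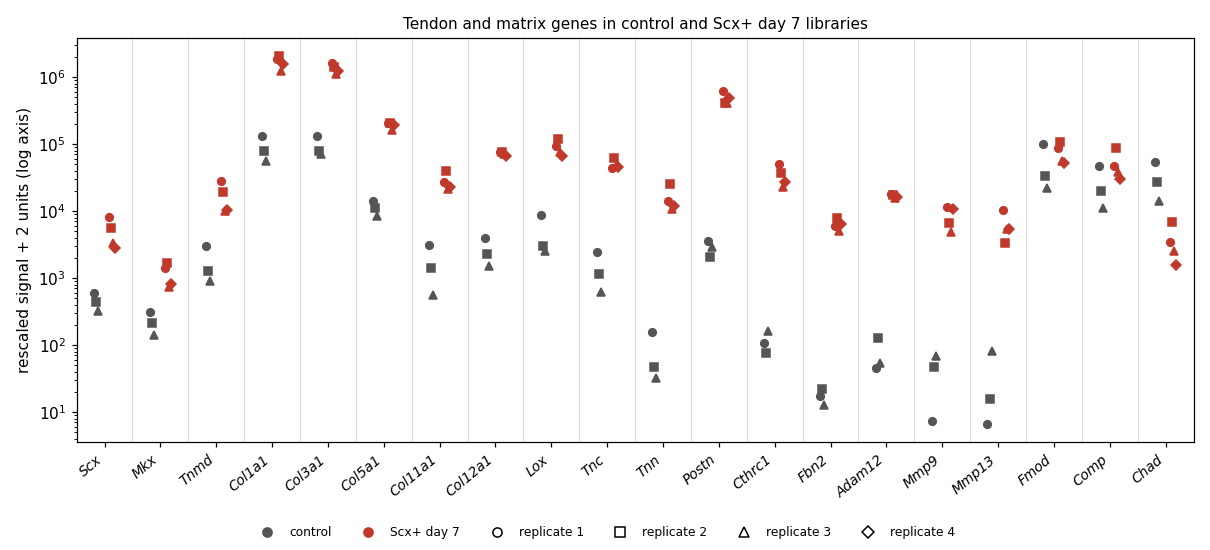
Rescaled signal plus 2 units (log axis) of 20 tendon and matrix genes in the 3 control (grey) and 4 Scx+ day 7 (red) libraries, the replicate number given by the shape. Postn, Cthrc1, Fbn2, Adam12, Mmp9 and Mmp13 separate the groups widely, Fmod and Comp overlap, and Chad is lower at day 7.

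Matrix-cutting enzymes rose in 19 of 23 tested genes and fell in 0 (median 3.25). Mmp13, a collagenase (chromosome 9, 7272514 to 7283331, plus strand), was at 4.72, 13.4 and 79.1 units in the controls and 10358, 3293, 5392 and 5338 at day 7 (8.11 ± 0.98, adjusted p = 5.76e-06). The gelatinase Mmp9 went from 5.32, 44.8 and 65.6 to 11374, 6656, 4818 and 10797 units (8.12 ± 0.97, adjusted p = 4.73e-06). Control replicate 1 was lowest for both, and the lowest day 7 library lay far above the highest control. Mmp14, the membrane-bound collagenase, rose from 2938, 2342 and 2692 to 114958, 75762, 77623 and 88718 units (5.05 ± 0.32, adjusted p = 6.47e-09), and the membrane protease Adam12 from 43.1, 124 and 51.8 to 18118, 17524, 15527 and 16252 units (7.97 ± 0.38, adjusted p = 3.98e-10). The aggrecan-cutting Adamts1 and Adamts5 did not pass, at 0.48 ± 0.26 and 0.13 ± 0.36. Of the 4 metalloproteinase inhibitors, Timp1 rose by 4.65 ± 0.37 (adjusted p = 4.95e-08) and Timp2 by 1.59 ± 0.35 (adjusted p = 0.000851). Timp4 fell from 2137, 2570.1 and 1722 to 9.33, 51.5, 35.4 and 35.3 units (-6.13 ± 1.28, adjusted p = 0.000603). Timp3 passed at -0.99 ± 0.34 (adjusted p = 0.0188) with overlapping groups, and the call was lost by library totals and without control replicate 1, control replicate 2, day 7 replicate 4 or day 7 replicates 3 and 4.

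The AP-1 factors, dimers of Fos and Jun proteins, bind the letters TGAGTCA, and several metalloproteinase promoters are textbook carriers of this site. RefSeq promoter windows (GRCm38.p6) were matched for 11 of the 23 protease genes. In the 250 bases before the start, 4 of these 11 held TGAGTCA on either strand, as did 5.16% of the 27025 genes with a window. The last 120 bases before the start of Mmp13 (chr9:7272394-7272513, plus strand) are shown because this gene had one of the largest rises, with the site in capitals as its other-strand letters.
Mmp13: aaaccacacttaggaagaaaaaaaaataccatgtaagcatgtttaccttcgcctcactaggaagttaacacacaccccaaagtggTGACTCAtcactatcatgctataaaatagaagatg
A match of letters is a description and does not show that a factor bound there.

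Signals that act on fibroblasts were divided in direction. Among TGF-beta ligands and receptors, 5 of 14 tested were higher and 3 lower, close to the background (median 0.27), and 9 and 2 by library totals. Tgfb1 was at 1014, 658 and 785 units in the controls and 3160.3, 3056, 3168 and 3025 at day 7 (1.94 ± 0.16, adjusted p = 6.94e-08), with day 7 values within a very narrow range. The activin receptors Acvr1b and Acvr2b fell by 2.23 and 3.01 on the log2 scale (SE 0.44 and 0.49, adjusted p = 0.000334 and 5.8e-05). Of 10 genes known as TGF-beta targets, 6 rose and 0 fell (median 1.23). Among them Acta2, smooth muscle actin of contractile cells and myofibroblasts, went from 2899.7, 2444 and 2391 to 22831, 25316, 24881 and 20592 units (3.18 ± 0.38, adjusted p = 3.08e-06). In the BMP, GDF and activin list 9 of 26 rose and 6 fell. Myostatin (Mstn), a growth inhibitor made mostly by muscle, fell from 5005, 10463 and 10751 to 78.8, 124, 227 and 294 units (-5.67 ± 0.74, adjusted p = 7.55e-06). The BMP antagonist Grem1 was listed at 0 in all 3 controls and at 92, 164, 35.6 and 38.6 units at day 7 (adjusted p = 8.71e-06), so no fold is given.

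IGF genes rose in 6 of 10 cases and fell in 1 (median 0.97), with 4 higher without day 7 replicates 3 and 4. Igf1, a growth factor for tendon and muscle, was at 4599, 3614 and 4677 units in the controls and 48488, 38698, 29607 and 33222 at day 7 (3.11 ± 0.48, adjusted p = 3.89e-05). Igfbp4, a binding protein of IGFs, rose by 3.09 ± 0.30 (adjusted p = 3.82e-07). Igfbp5 fell by 1.64 on the log2 scale (SE 0.47, adjusted p = 0.00622) and did not pass by library totals (-0.96). Igf2 passed at 1.58 ± 0.55 (adjusted p = 0.0192) but not without day 7 replicate 3 (1.26) or without control replicate 3 (1.42). Its levels of 4724, 5876, 17142 and 11772 units at day 7 were highest in replicates 3 and 4.

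The PDGF, FGF and VEGF list had 10 of 22 genes higher and 4 lower. The receptor Pdgfrb rose by 1.62 ± 0.28 and its relative Pdgfrl by 2.75 ± 0.22 (adjusted p = 0.000117 and 5.92e-08). Fgfr2, a fibroblast growth factor receptor, went from 262, 129 and 188 to 1656, 1856, 1258 and 1609 units (3.08 ± 0.44, adjusted p = 1.45e-05). Vegfa, the main growth factor for blood vessels, fell from 6044, 8109 and 9122 to 1605, 1401, 2204 and 1554 units (-2.20 ± 0.30, adjusted p = 1.16e-05), and Vegfb fell as well (-2.34 ± 0.26, adjusted p = 1.54e-06). Muscle also expresses both. In the Wnt list 11 of 21 were higher and 3 lower. The secreted Wnt inhibitors Sfrp1 and Sfrp2 rose by 4.17 ± 0.41 and 4.32 ± 0.47 (adjusted p = 5.31e-07 and 1.34e-06), and Sfrp1 was at 954, 974 and 1432 units in the controls and 19786, 23925, 17279.6 and 18918 at day 7. The ligand gene Wnt4 fell from 1304, 2184 and 1467 to 37.4, 7.62, 29.9 and 26.9 units (-6.05 ± 0.92, adjusted p = 2.92e-05).

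Genes tied to mechanical sensing rose in 8 of 14 cases, with 1 lower (median 1.08), or 2 lower without day 7 replicates 3 and 4. No member was lower without control replicate 2 or 3 or day 7 replicate 1 or 2. Tead2, a DNA-binding partner of YAP, went from 61.4, 104 and 67.4 to 1242, 933, 687 and 996 units (3.61 ± 0.29, adjusted p = 4.77e-08), and the stretch-gated channel Piezo2 rose by 2.89 ± 0.48 (adjusted p = 7.75e-05). The integrins had 8 of 13 higher and 0 lower, or 6 and 1 without day 7 replicate 3 and also without replicates 3 and 4. Itga5, the fibronectin receptor chain, rose by 1.59 ± 0.20 and the collagen receptor chain Itga11 by 2.69 ± 0.48 (adjusted p = 4.14e-06 and 0.000153). The calls of Itga8 (1.33 ± 0.50) and Itgb3 (0.97 ± 0.40) each depended on more than 1 library. Itga8 did not pass without control replicate 1 or 3 or day 7 replicate 1 or 3. Itgb3 did not pass without control replicate 2 or 3 or day 7 replicate 1, 3 or 4.

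Immediate early genes, which respond within minutes to stimuli and to tissue handling, had 11 of 18 higher and 1 lower (median 1.47). They held 0.0534% to 0.0680% of the control signal, 0.109% to 0.140% in day 7 replicates 1 to 3 and 0.382% in replicate 4. Junb showed the same excess, with 1500.4, 1104 and 2039.7 units in the controls and 5212, 4679, 3678 and 10467 at day 7 (1.88 ± 0.32, adjusted p = 8.59e-05). Fos itself did not pass, at 3689, 4425, 3512 and 32519.6 units at day 7 beside 5509.6, 3399.5 and 7264 in the controls. Nr4a1, an early response nuclear receptor, was the 1 lower member (-1.80 ± 0.62, adjusted p = 0.0195), and none was lower without control replicate 2 or day 7 replicate 1 or 3. Myc, a driver of cell growth, rose by 1.23 ± 0.20 (adjusted p = 6.45e-05) with day 7 values of 2470.2, 1919, 1545 and 1901 units over 921, 883 and 681.

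Cell division genes were low in the controls and rose at day 7. All mitosis genes tested except Aurka passed, 32 of 33, with a median of 4.85. Mki67, the usual marker of cycling cells, was at 425, 93.3 and 124 units in the controls and 3448, 7221, 6085 and 6328 at day 7 (5.01 ± 0.76, adjusted p = 4.68e-05). Day 7 replicate 1 was the lowest of its group and still above the highest control. Aurkb, a kinase of chromosome segregation, was listed at 0, 1.03 and 4.32 units in the controls and at 526, 853, 679.6 and 693 at day 7 (adjusted p = 3.07e-08). The kinetochore gene Nuf2 went from 4.92, 7.15 and 1.51 to 649, 1082, 667 and 788 units (7.01 ± 0.69, adjusted p = 4.55e-07), and cyclin B2 (Ccnb2) from 9.2, 4.7 and 28.4 to 1016, 1279, 1068 and 1052 (6.39 ± 0.77, adjusted p = 3.72e-06). Where control values are below about 10 units, the fitted difference depends on the 2 units added. Mitosis genes held 0.0025% to 0.0042% of the control signal and 0.0693% to 0.123% at day 7, so the signal came from a minor part of the RNA.

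DNA replication genes were higher in 28 of 34 cases and lower in 0 (median 1.49). Uhrf1, which helps copy DNA methylation marks in S phase, was at 73.3, 66.7 and 48.7 units in the controls and 802, 1702, 1334 and 1560.5 at day 7 (4.35 ± 0.44, adjusted p = 5.73e-07). Rrm2, the S phase subunit of ribonucleotide reductase, rose by 5.0 ± 0.42 and the replication licensing gene Cdt1 by 3.64 ± 0.23 (adjusted p = 8.47e-08 and 5.53e-09). The helicase subunit Mcm2 did not pass, at 725, 1196 and 489.6 units in the controls and 813, 1254, 1094 and 1284 at day 7. Among 14 genes of G1 control, 8 were higher and 2 lower, or 11 and 0 by library totals and 7 and 1 without day 7 replicates 3 and 4. The 2 lower genes were Cdkn2c, an inhibitor of Cdk4 and Cdk6, and the pocket protein Rbl2. Cdk4 and Cdk6, the kinases that open G1, rose by 1.49 ± 0.22 and 2.17 ± 0.28 (adjusted p = 2.31e-05 and 5.62e-06). Cdkn2a, whose products include p16, was at 1.31, 7.68 and 0 units in the controls and 92.6, 64.9, 78.8 and 102 at day 7 (4.42 ± 0.57, adjusted p = 6.17e-06), and its neighbour Cdkn2b rose by 3.53 ± 0.54 (adjusted p = 3.39e-05).

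Promoters of genes that peak in late cell cycle often carry a CCAAT box and the element TTTGAA, known as CHR. RefSeq windows were matched for 28 of the 33 mitosis genes. In the 250 bases before the start, CCAAT was found on either strand in 20 of these 28 (71.4%) and in 37.5% of all genes, and TTTGAA in 9 of 28 (32.1%) and in 18.3% of all. Of 27 replication genes matched, 16 held CCAAT and 4 held TTTGAA. The 120 bases before the start of 3 mitosis genes are shown because their rises were large and they carry these letters in different arrangements. They are Cdk1 (chr10:69352913-69353032), Ccnb2 (chr9:70421555-70421674) and Cdc20 (chr4:118437344-118437463), all on the minus strand, with both motifs in capitals on either strand (ATTGG is CCAAT read on the other strand).
Cdk1: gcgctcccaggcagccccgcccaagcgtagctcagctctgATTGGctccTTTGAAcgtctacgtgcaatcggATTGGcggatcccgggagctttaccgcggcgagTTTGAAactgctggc
Ccnb2: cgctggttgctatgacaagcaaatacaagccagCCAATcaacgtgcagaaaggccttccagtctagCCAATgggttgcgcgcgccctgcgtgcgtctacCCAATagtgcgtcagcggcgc
Cdc20: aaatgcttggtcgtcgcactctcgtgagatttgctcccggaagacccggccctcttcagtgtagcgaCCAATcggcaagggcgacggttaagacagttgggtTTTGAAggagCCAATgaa
In this stretch Cdk1 has both motifs, Ccnb2 has CCAAT repeated and no TTTGAA, and Cdc20 has both close to the start. Cdk1 itself, the kinase that starts mitosis, rose from 43.8, 33.2 and 71.7 to 1317, 2184, 1558 and 1718 units (5.08 ± 0.56), and Cdc20, an activator of the ubiquitin ligase that ends it, rose by 5.06 ± 0.52 (adjusted p = 1.55e-06 and 7.09e-07).

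Genes of the secretory pathway were higher in 20 of 28 cases and lower in 4 (median 0.94), or 23 and 1 by library totals. Creb3l1, a factor that drives secretory capacity in collagen-making cells, went from 926, 625 and 515 to 6564, 6425, 4174 and 4985 units (3.02 ± 0.32, adjusted p = 1.02e-06). Kdelr3, which returns escaped proteins to the endoplasmic reticulum, and Sec24d, of the coat of outgoing vesicles, rose by 3.16 ± 0.27 and 2.71 ± 0.29 (adjusted p = 1.11e-07 and 1.13e-06). The stress chaperone Hspa5 rose less, by 0.94 ± 0.21 (adjusted p = 0.000947). The stress factor Atf4 was lower relative to the median gene (-0.70 ± 0.16, adjusted p = 0.00125), in a list with only 1 lower member by library totals. Ribosome biogenesis gave no stable direction. Of 24 genes tested, 5 were higher and 11 lower (median -0.33), but 12 higher and 2 lower by library totals, where the median was 0.35. With muscle and globin genes left out of those totals it was 8 and 8. Within the list Npm1, a nucleolar chaperone, was at 6946, 6516 and 7398 units in the controls and 18267, 17741, 15945 and 15695 at day 7 (1.28 ± 0.21), and Polr1a, the large subunit of RNA polymerase I, at 3087, 5257 and 4005 and 942, 1117, 1542 and 1368 units (-1.72 ± 0.36).

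Muscle fibre genes fell in 23 of 28 cases (median -6.03). Myh4, the fast myosin heavy chain (chromosome 11, 67238029 to 67260446, plus strand), was at 3904820, 6905190 and 4736780 units in the controls and 12876, 2452, 58178 and 70159.6 units at day 7 (-8.05 ± 1.30, adjusted p = 7.72e-05). Acta1, skeletal muscle actin, went from 1874130, 2294450 and 1810340 to 16870.2, 1876, 169395 and 163981 units (-6.02 ± 1.5, adjusted p = 0.00269). In both genes day 7 replicates 3 and 4 lay well above replicates 1 and 2 but far below the controls. Pvalb and Atp2a1, which bind and pump calcium in fast fibres, fell by 8.58 and 7.70 on the log2 scale (SE 1.49 and 1.46, adjusted p = 0.000154 and 0.00032). The largest falls of all genes under the naming rule included other genes known from muscle, Mylk4, a myosin light chain kinase (-8.97 ± 1.07), Scn4b, a sodium channel subunit (-8.73 ± 1.28), and Asb18 (-8.70 ± 1.29). Odf3l2 had the lowest value, -11.01 ± 1.29, from 9976, 9662 and 8479 to 1.68, 10.1, 0.666 and 1.54 units.

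The exceptions among muscle genes differed by library. These genes and the precursor genes after them, other than Chrng, were named after their values were seen. Tnni1 and Tnnt1, troponins of slow and immature fibres, were the 2 muscle genes that rose. Tnni1 was at 7.41, 19 and 47.7 units in the controls and 749, 84.9, 9625 and 5519.7 at day 7 (5.99 ± 1.27, adjusted p = 0.000818), and Tnnt1 at 64.8, 40.5 and 169 and 398, 111, 4329 and 2815 (3.45 ± 1.18, adjusted p = 0.0186). Embryonic myosin (Myh3), found in newly formed fibres, was at 188, 183 and 520.1 units in the controls and 1234, 91, 32570.1 and 13071 at day 7 and did not pass (3.33 ± 1.60, adjusted p = 0.0824). Neonatal myosin (Myh8) followed, with 726, 1146 and 879.6 units against 2807, 101, 19524 and 10731 (1.63 ± 1.32, adjusted p = 0.296). In all 4 genes replicates 3 and 4 were the highest libraries of the 7 and replicate 2 the lowest of day 7.

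Genes of muscle precursor cells split the same way. The fusion gene Mymk was at 26.4, 35.1 and 46.8 units in the controls and 99.4, 11.9, 2202 and 988 at day 7, and the differentiation factor Myog at 147, 229 and 465 and 203, 30.2, 2472 and 1496, neither past the threshold (adjusted p = 0.0812 and 0.639). Chrng, the fetal subunit of the muscle acetylcholine receptor, passed at 5.69 ± 1.33 (adjusted p = 0.0015), with 1.9, 0 and 0 units in the controls and 74.5, 4.44, 1102 and 502 at day 7. Pax7, of satellite cells, and Myod1, of myoblasts, overlapped between groups (-1.67 ± 1.24 and -2.25 ± 1.17), and Myh7, the slow myosin, reached at most 60.3 units in these 7 libraries (-0.06 ± 1.79). Of 14 precursor genes 2 were higher and 2 lower (median 1.14). Single libraries decided this count: it was 7 and 1 without day 7 replicate 2, 3 and 1 without control replicate 1 or 3, 2 and 1 without control replicate 2 or day 7 replicate 1, and 2 and 4 (median -0.80) without day 7 replicates 3 and 4. The count for fibre genes was 1 higher and 25 lower without that pair, with a median of -8.41, and 1 higher without control replicate 2 or either of the pair alone.

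**Figure D4:**
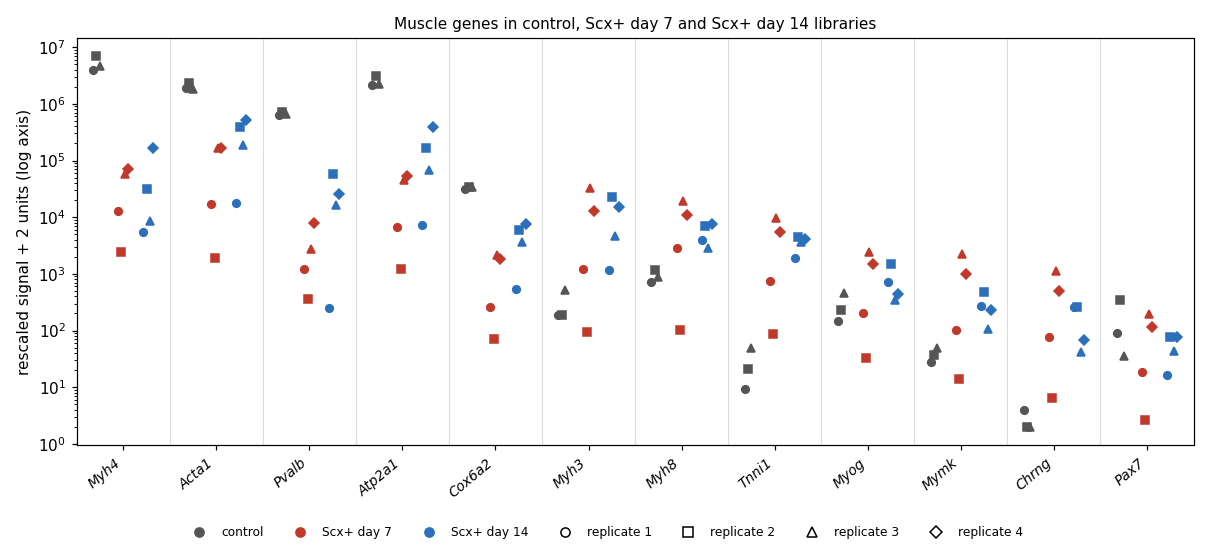
Rescaled signal plus 2 units (log axis) of 12 muscle genes in control (grey), Scx+ day 7 (red) and Scx+ day 14 (blue) libraries, the replicate number given by the shape. Mature fibre genes at the left fall by orders of magnitude from control to day 7. Among the control and day 7 libraries, Myh3, Myh8, Tnni1, Myog, Mymk and Chrng are highest in day 7 replicates 3 and 4.

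Most genes of energy metabolism were lower at day 7, as were muscle genes, and whether these falls are linked was not tested. All 34 nuclear genes of the respiratory chain that were tested were lower (median -2.32), as were 21 of 22 genes of fatty acid oxidation and the citrate cycle (median -2.59) and 13 of 20 of glycolysis (median -2.61, 6 higher). Forms known from muscle fell most. Cox6a2, the muscle form of a cytochrome oxidase subunit, went from 30919.7, 34533 and 34720.2 to 262, 69, 2166 and 1864 units (-5.99 ± 1.23, adjusted p = 0.000633), with replicates 3 and 4 above replicates 1 and 2 as for muscle signal. Cox5a, a subunit of all tissues, fell less, from 19334, 21281 and 25445 to 3099, 2499, 3767 and 3772 units (-2.76 ± 0.36, adjusted p = 6.92e-06), with a spread below 2-fold at day 7. The muscle enolase Eno3 and the insulin-dependent glucose carrier Slc2a4 fell by 5.88 and 6.24 on the log2 scale (SE 1.08 and 1.18, adjusted p = 0.000242 and 0.000323). Of the fat cell genes, adipsin (Cfd) went from 50187, 68588 and 78115 to 485, 1458, 929 and 679 units (-6.30 ± 1.11, adjusted p = 0.000168) and leptin (Lep) from 1047, 2164 and 1555 to 20.6, 80.9, 54.6 and 90.6 (-4.77 ± 1.15, adjusted p = 0.00175).

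Most macrophage genes rose. In the macrophage list 19 of 22 tested genes were higher and 1 lower (median 1.96). Adgre1, the F4/80 antigen, was at 663, 664 and 1561 units in the controls and 4606, 4411, 5622 and 4433 at day 7 (2.42 ± 0.34, adjusted p = 1.51e-05). Ccr2 and Ly6c2, of monocytes newly arrived from blood, rose by 3.56 ± 0.54 and 4.17 ± 0.65 (adjusted p = 3.2e-05 and 3.84e-05). The 1 lower gene was Timd4, a receptor of some resident macrophages, which fell from 103, 65.4 and 170.3 to 7.14, 6.48, 1.97 and 8.28 units (-3.83 ± 0.68, adjusted p = 0.000118), and Lyve1 and Cd163 did not pass, at -1.01 ± 0.47 and -0.21 ± 0.64. Arg1, an enzyme of wound macrophages, spread widely, from 24.9, 0 and 1.49 to 107, 39.9, 831 and 343 units, with replicate 3 highest (5.05 ± 1.16, adjusted p = 0.00123). The lysosomal proteases and matrix uptake list had 10 of 12 higher and 0 lower. Within it cathepsin S (Ctss), of antigen-presenting cells, rose by 2.87 ± 0.34, and cathepsin K (Ctsk), a collagen-cutting protease, by 3.06 ± 0.36 (adjusted p = 2.61e-06 and 2.43e-06).

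Neutrophil genes had 6 of 8 tested higher and 0 lower, and lymphocyte genes 11 of 16 higher and 0 lower, mostly at low levels. The lymphocyte genes Cd3d, Cd3e, Cd8a, Foxp3 and Icos and the neutrophil genes Camp and Ltf were tested and did not pass. The neutrophil genes Ly6g, Mpo, Elane and Ngp had too little signal to test. Genes near 0 in the controls could enter the test only through libraries with a stimulus, so these counts lean towards rises. With a mean of at least 1 ppm over all 19 libraries required, 3 of 3 neutrophil and 4 of 4 lymphocyte genes were higher. Most of these libraries had a stimulus, so this filter does not remove that lean. S100a9, a granulocyte protein, was at 0, 17.9 and 51 units in the controls and 617, 203, 164 and 388 at day 7 (4.55 ± 1.17, adjusted p = 0.00299). Cd4, of helper T cells and some myeloid cells, went from 9.54, 72.6 and 66.2 to 721, 630.3, 414 and 349 units (3.71 ± 0.62, adjusted p = 6.76e-05). The B cell gene Ms4a1 was listed at 0 in all controls and at 0, 10.3, 23.3 and 106 units at day 7 (adjusted p = 0.0175), and its call was lost without replicate 4. Without day 7 replicates 3 and 4, 7 lymphocyte genes were higher, and 7 when only the groups compared were fitted. Of 8 mast cell genes, Kit alone passed (1.51 ± 0.47, adjusted p = 0.01), and neither without day 7 replicates 3 and 4 nor without control replicate 3 (0.92).

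Chemokine and cytokine genes were higher in 23 of 30 cases (median 3.37). Ccl7, which draws monocytes, went from 16, 40.2 and 148 to 2241, 2436, 1834 and 2596 units (5.54 ± 0.62, adjusted p = 2.06e-06). Cxcl5, which draws neutrophils, was listed at 0, 0 and 1.28 units in the controls and 747, 330.3, 438 and 908 at day 7 (adjusted p = 4.12e-06). Il1b, a main inflammatory cytokine, was at 0, 24.9 and 1.62 units in the controls and 523, 279.9, 171 and 769 at day 7 (6.02 ± 1.09, adjusted p = 0.000156), with replicate 4 highest as for Cxcl5. Ptgs2, the inducible enzyme of prostaglandin synthesis, rose by 5.42 ± 0.54 (adjusted p = 5.61e-07). Ccl11, an eosinophil attractant, was the 1 lower gene (-0.97 ± 0.36, adjusted p = 0.0279), and none was lower without control replicate 1 or day 7 replicate 1 or 2. By library totals, with or without muscle and globin genes, and with quality weights, none was lower either. With only the groups compared fitted, 3 were lower. In the complement list 7 of 12 were higher, among them properdin (Cfp, 2.5 ± 0.33) and the receptor C3ar1 (2.34 ± 0.31), and C7, of the membrane attack complex, was lower (-4.19 ± 0.82).

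Interferon-induced genes rose in 18 of 20 cases and fell in 0 (median 2.20). Isg15, a ubiquitin-like protein, was at 64.8, 63.1 and 57.6 units in the controls and 309.6, 652, 751 and 1122 at day 7 (3.34 ± 0.45, adjusted p = 8.6e-06). Oas1a, a sensor of double-stranded RNA, was at 123, 94.5 and 119 and 466, 608, 793 and 1005 units (2.60 ± 0.37, adjusted p = 1.4e-05). For both, replicate 4 was highest and replicate 1 lowest at day 7. Rsad2, an antiviral enzyme, went from 220.2, 99.3 and 71.4 to 698, 2563, 2093 and 1267 units (3.64 ± 0.79, adjusted p = 0.000848), with replicate 2 highest. The transcription factor Irf7 rose by 2.87 ± 0.29 (adjusted p = 5.77e-07).

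The interferon-stimulated response element reads GAAANNGAAA, or its complement on the other strand. It was found in the 250 bases before the start in 6 of 14 interferon genes matched to a RefSeq window (42.9%) and in 3.46% of all 27025 genes. The 120 bases before the start of Isg15 (chr4:156200819-156200938), Oas1a (chr5:120907526-120907645) and Rsad2 (chr12:26456453-26456572), all on the minus strand, are shown for the place of the element, which is in capitals and can overlap itself.
Isg15: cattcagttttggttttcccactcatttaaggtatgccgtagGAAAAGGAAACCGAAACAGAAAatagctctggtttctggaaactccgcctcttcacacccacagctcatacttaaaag
Oas1a: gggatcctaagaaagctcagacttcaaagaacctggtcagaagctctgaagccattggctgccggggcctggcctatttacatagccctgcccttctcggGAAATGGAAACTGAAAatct
Rsad2: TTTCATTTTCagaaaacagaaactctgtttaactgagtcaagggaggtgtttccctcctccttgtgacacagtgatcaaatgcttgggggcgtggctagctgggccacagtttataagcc
In Oas1a the element lies next to the start, and in Rsad2 it is at the far end of the stretch.

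**Figure D5:**
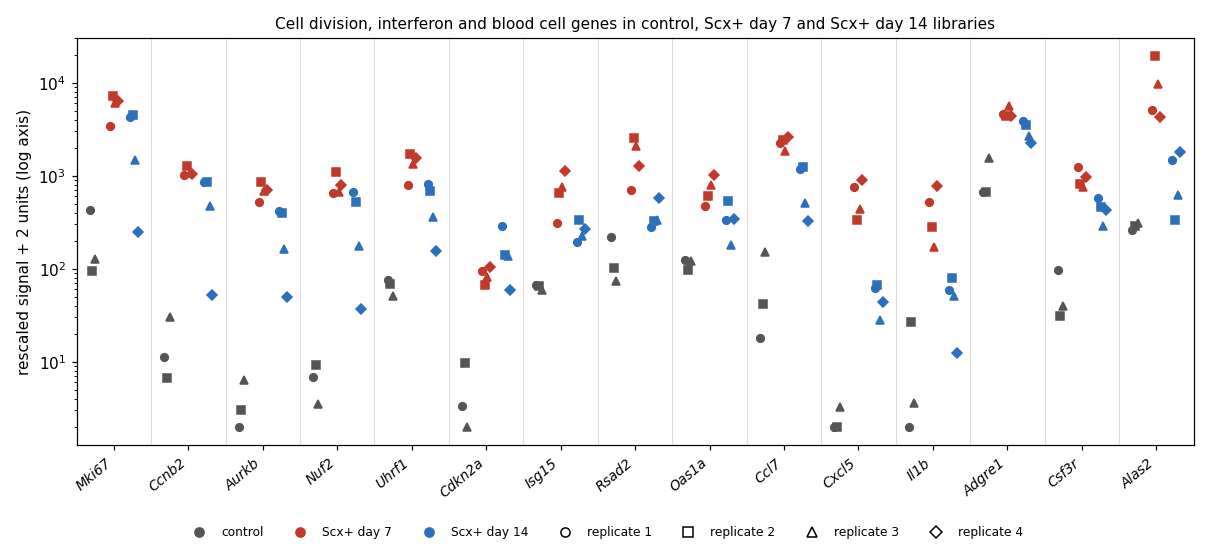
Rescaled signal plus 2 units (log axis) of 15 genes of cell division, interferon response, inflammation and blood cells in control (grey), Scx+ day 7 (red) and Scx+ day 14 (blue) libraries, the replicate number given by the shape. Each day 7 library lies above the controls in all 15 genes, while day 14 values of Mki67 and Ccnb2 spread over more than 10-fold.

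Globins and most of the red cell genes tested rose. The share of signal held by the red cell list overlapped between groups, at 0.0385% to 0.0486% in the controls and 0.0205% to 0.0741% at day 7. Globin entries held 0.0420% to 0.0653% of the control signal and 1.05%, 3.87%, 1.83% and 0.866% in day 7 replicates 1 to 4. Alas2, of haem synthesis in red cell precursors, was at 258, 286 and 311 units in the controls and 5148, 19222, 9679 and 4251 at day 7 (4.8 ± 0.95, adjusted p = 0.000426). The membrane transporter Slc4a1 went from 7.34, 11.7 and 1.6 to 348, 1747, 1118 and 300.2 units (6.45 ± 1.30, adjusted p = 0.000405). Replicate 2 was the highest and replicates 1 and 4 the lowest of day 7 for both, the same order as for globin signal. Of 9 red cell genes tested 6 rose, and Sptb, also made in muscle, fell (-4.87 ± 1.22). Genes low in the controls, such as Slc4a1, could enter this count only through libraries with a stimulus, so it leans towards rises. Bpgm did not pass, and Gata1, Ahsp, Hemgn and Rhag were not tested. Klf1, the master factor of the red cell lineage, was listed at 0 in the controls and at 0.744, 1.11, 6.38 and 3.34 units at day 7 (adjusted p = 0.19). Of 6 globin entries 5 were higher. The count was 3 when any 1 of the 3 controls or of day 7 replicates 1 to 3 was left out. It was also 3 without day 7 replicates 3 and 4. The calls lost were those of Hbb-b2 and Hbb-bt, while Hbb-bs, Hba-a1 and Hbb-b1 passed in each of these fits. The entries Hbb-b2 and Hbb-bt, near-identical copies, had nearly the same values in each library, and how shared reads were assigned is not given in the sources used here.

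Few endothelial and Schwann cell markers passed. Endothelial genes had 1 of 18 higher and 1 lower (median -0.19), or 3 and 0 by library totals. Cdh5, a junction protein of endothelium, was at 6209, 5152 and 3021 units in the controls and 3308, 4793, 7119 and 7709.6 at day 7 (0.24 ± 0.41, adjusted p = 0.621), and Pecam1 differed by -0.23 ± 0.38 with overlapping groups. Apln, made by sprouting vessel cells, rose from 294, 325 and 237 to 1348, 1323, 3110.2 and 1802 units (2.64 ± 0.39, adjusted p = 2.3e-05). The VEGF receptor Flt1 was lower (-1.16 ± 0.41, adjusted p = 0.0206), a call lost by library totals and without control replicate 1, control replicate 2 or day 7 replicate 1. Among 12 mural genes 4 were higher and 2 lower: the contractile Cnn1 rose by 4.89 ± 0.99 (adjusted p = 0.00041), and Abcc9, a potassium channel subunit also found in muscle, fell (-3.38 ± 0.68, adjusted p = 0.000493). Fibroblast and sheath genes had 5 of 14 higher and 2 lower. Tppp3, of the tendon sheath, fell from 14430.3, 12005 and 19789 to 2811, 1929, 2336 and 1676 units (-2.81 ± 0.48, adjusted p = 0.000108), and Cd55, of synovial lining, was also lower (-1.79 ± 0.23, adjusted p = 5.47e-06). In the Schwann cell list 2 of 11 were higher and 1 lower, or 0 and 1 without control replicate 3 and also without day 7 replicates 3 and 4. Mbp, of myelin, was the lower one (-1.58 ± 0.37, adjusted p = 0.00125), and its call was lost by library totals (-0.91).

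Cartilage and bone genes had 7 of 17 tested higher and 2 lower. Sox9, the cartilage factor also present in tendon progenitors, was at 288, 247 and 307 units in the controls and 1383, 2492, 1176 and 2010.5 at day 7 (2.59 ± 0.45, adjusted p = 0.000117). The bone factor Runx2 rose by 2.65 ± 0.36 (adjusted p = 9.75e-06). Matn3, a cartilage matrix protein, was listed at 0 in all controls and at 429, 558, 352 and 412 units at day 7 (adjusted p = 3.73e-08). Sox6, expressed in cartilage and in muscle, fell from 6754, 9871 and 10829 to 273, 490.5, 872 and 839 units (-4.0 ± 0.83, adjusted p = 0.000652). Since tamoxifen acts on oestrogen receptors and the control mice did not receive it, receptor and target genes were listed too, and 3 of 6 were higher and 3 lower. Esr1, the main receptor, fell from 1487, 2740.1 and 2184 to 588, 463, 755 and 608 units (-1.80 ± 0.23, adjusted p = 4.93e-06). Esr2 and Nrip1, an oestrogen-responsive corepressor, were the other lower genes, and Greb1, Pgr and Gper1 were higher. Greb1 was at 0, 43.1 and 4.62 units in the controls and 342, 331, 611 and 435 at day 7 (5.64 ± 0.68, adjusted p = 3.08e-06), and Pgr was listed at 0 in all controls and at 40.6, 39.3, 59.2 and 64.1 units at day 7 (adjusted p = 3.82e-06). Pgr could therefore enter the test only through libraries with a stimulus. The labels give no group with tamoxifen and no stimulus, so the part of tamoxifen in the values of these receptor and target genes cannot be told apart from that of the stimulus.

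Day 14 tendon was set beside day 7 to place the early time point. Only 5 of 16625 genes (0.0301%) passed, 2 higher and 3 lower at day 14, while 1757 had an unadjusted p below 0.05. The 5 genes were named after their values were seen. Lmnb1, a nuclear lamin that falls in cells that stop dividing, was at 1048, 1386, 1326 and 1600.2 units at day 7 and 709.6, 590.3, 366 and 270.2 at day 14 (-1.55 ± 0.23, adjusted p = 0.0156), beside 315, 354 and 443 in the controls. Grk3, a receptor kinase, fell from 691, 787, 753 and 805 to 328, 349, 150.4 and 299.7 units (-1.49 ± 0.22), and Bpgm, an enzyme of red cells, from 3049, 10206, 5472 and 2257 to 1031, 957, 1016 and 1216 (-2.07 ± 0.31, adjusted p = 0.0156 and 0.0156). Scara5, a ferritin receptor of fibroblasts, was at 2762, 2493 and 4677 units in the controls, 1182, 494, 708 and 663 at day 7 and 3818, 3130.3, 11470.1 and 7755 at day 14 (2.98 ± 0.42, adjusted p = 0.0156). The unnamed transcript Gm15674 had the same course (1.33 ± 0.21, adjusted p = 0.0218), and it overlaps an exon of Cd55b on the other strand. Leaving out single libraries left 0 to 11 genes higher and 0 to 16 lower. With only the day 7 and day 14 libraries fitted, Lmnb1, Grk3, Bpgm and Scara5 did not pass, and Lmnb1 did not pass with the replicate number as a block either (adjusted p = 0.056).

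For the genes described above, the days mostly did not differ past the threshold, which does not show that they were alike. The day 14 median relative to day 7 was -1.59 for mitosis genes and -0.74 for replication genes, with 0 members positive in either list and 0 past the test. Muscle fibre genes had a day 14 median of 2.46, with 28 of 28 positive. Globin entries had -3.40, with 0 of 6 positive, and 0 members of either list passed. Muscle fibre genes held 0.305% to 9.80% of the signal at day 14 and 0.0378% to 2.42% at day 7. Mki67 was at 4291, 4449, 1480.2 and 247 units at day 14, with replicate 4 within the control range and replicates 1 and 2 within that of day 7 (-1.77 ± 0.71, adjusted p = 0.369). Scx was at 5093, 3747, 5044 and 2096 units (-0.26 ± 0.39, adjusted p = 0.873) and Postn differed by -0.26 ± 0.32. Neither collagen nor tendon genes passed: Col1a1 differed by -0.27 ± 0.41, Col3a1 by 0.14 ± 0.41 and Tnmd by 1.17 ± 0.62 (adjusted p = 0.872, 0.948 and 0.534). Mmp9 was at 2245, 749.9, 616 and 154 units at day 14 (-3.64 ± 0.90, adjusted p = 0.17) and Mmp13 at 8563, 6915, 12135 and 1972 (0.13 ± 0.91, adjusted p = 0.982).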

How the data were processed

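Total RNA of mouse plantaris tendon had been sequenced, and no reads were used here. A deposited table gives the signal of each gene in each library on a scale set by the authors. Its values are not whole, whole reads could not be recovered, and the depth is unknown. Another deposited table holds the authors' log2 fold changes with standard errors and adjusted p-values, used only for the counts quoted as theirs. The submitters' processing notes name FastQC, STAR, DESeq2 and mm10, without versions or roles.

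The signal of 24972 genes was rescaled with medians of ratios, taken from the 13703 genes above 0 in all 19 libraries. A gene was kept if its rescaled value reached 10 in 3 or more libraries, which left 16625. The fit used log2 of value plus 2, a pseudocount that understates changes of low genes. One limma model (version 3.58.1, R 4.3.3) covered the 5 groups of the series, with trended prior variance and robust moderation and without covariates. Benjamini-Hochberg adjustment ran over the genes kept, at 0.05. The script was tested on simulated data.

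Members and lists were chosen with earlier results of these data known. Named genes were a fixed set of tendon, matrix, division and muscle genes, the 10 largest rises and falls (called, groups without overlap, mean of 5 ppm of signal or more), and up to 5 members of each list. Some are left out for length, and list members outside this rule, mostly ones that did not pass, were named after their values were seen. Positions are from GENCODE M21 (GRCm38) and promoter sequences from RefSeq (GRCm38.p6). Some named genes overlap a gene on the other strand, and whether the libraries kept the strand is not given in the sources used here. A few genes of the lists are not reported here. Alternatives were other scalings (a trimmed mean of M values among them), filters, pseudocounts of 0.5 and 8, moderation, samples fitted, a replicate block, quality weights and leaving out libraries. The fit without day 7 replicates 3 and 4 was chosen after seeing the data. The Scx- libraries enter only the rescaling, the filter and the fit.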

Additional observations from a re-analysis of the deposited data

Results flagged for a closer look

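Among 276 sets of 4 day 7 values (named genes and the shares of lists) tested for 1 value far from the other three, 7 were picked out, where chance alone gives about 1 in 20. High values were Apoo-ps at 31.8 units in replicate 3, Cers1 at 157 units and the immediate early genes at 0.382% of the signal in replicate 4, and Col9a2 at 247.5 and Amotl2 at 4839 units in replicate 2. Low values were Gzmb at 12.3 units in replicate 3 and Plin4 at 251.9 units in replicate 1. The other day 7 libraries held 0 units of Apoo-ps and Cers1, so the falls of these genes rest on listed zeros.

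The effect of day 14 against day 7 in Scx+ tendon was past the threshold for 5 genes, whose log2 differences were -2.07 for Bpgm, 1.33 for Gm15674, -1.49 for Grk3, -1.55 for Lmnb1 and 2.98 for Scara5.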

How the results depend on the processing

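No named value that passed the test changed direction, and the other genes were not examined for this. Some list medians did change direction: ribosome biogenesis (-0.33, and 0.35 by library totals) and muscle precursors (1.14, and -0.80 without day 7 replicates 3 and 4), besides those of endothelial, mural, mast cell and oestrogen genes (-0.19 to 0.49 as reported). For day 7 against control, library totals gave 8971 genes higher and 2449 lower in place of 5617 and 4575. Leaving out 1 library of the groups compared gave 5109 to 5469 higher and 4153 to 4490 lower, and leaving out day 7 replicates 3 and 4 gave 4748 and 4075. Of 231 named values, 12 no longer passed in the last case, and 0 to 10 under any other alternative. For day 14 against day 7, with 2 genes higher and 3 lower as reported, the count of higher genes was 1 by library totals, 4 without rescaling, 4 by library totals without muscle and globin genes, 8 with the trimmed mean of M values, 10 without a filter, 9 with a mean of at least 1 ppm and 9 with a pseudocount of 8. The count of lower genes was 24 without rescaling, 9 without a filter, 5 with at least 1 ppm, 8 with a pseudocount of 8 and 11 with only the groups compared. Without day 7 replicates 3 and 4 it was 0 higher and 1 lower, and leaving out single libraries gave 0 to 11 and 0 to 16. The cause was not tested. Replicate numbers are not stated to pair the samples. Same-numbered control and day 7 libraries deviated with correlations of 0.05, -0.03 and 0.01, and same-numbered day 7 and day 14 libraries with 0.28, -0.20, -0.09 and 0.33. Differently numbered day 7 and day 14 libraries ranged from -0.42 to 0.43. So few pairs cannot decide whether samples were paired. With a replicate block 5332 genes were higher and 4333 lower at day 7, and 2 higher and 2 lower at day 14 against day 7. The reads behind a value are unknown, so no detection limit is given for genes listed at 0.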
